A study of Rattus norvegicus with 32 samples.

Results

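Reg3b, Reg3g, Reg3a and Gal were followed on 32 arrays of left ventricle from Wistar rats with and without abdominal sepsis. The first 3 genes encode small secreted C-type lectins of the regenerating islet-derived family, and Gal encodes the precursor of the neuropeptide galanin. They were chosen by their measured difference between CLP (cecal ligation and puncture) and sham arrays, in which Reg3b and Gal were among the largest rises, and Reg3g and Reg3a were added as relatives of Reg3b. Every probe that was not a control and carried one of the names was taken, which gave 1 probe for each gene, or 4 of 45598 probes. The rise after CLP was therefore the reason for the choice, and its values are given below as a description without a test.

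The rats were young adults, and each group held 5 sham, 5 CLP or 6 CLP plus landiolol animals of a sex, with 1 array for each heart. In CLP, the cecum is tied and pierced so that gut bacteria enter the abdomen. Landiolol, a β1-adrenergic blocker that is cleared within minutes, was infused in saline from shortly after CLP, whereas the other groups received saline alone. All animals received buprenorphine before surgery and no antibiotic, came from an earlier experiment with cardiac imaging, and were killed at 20 h, after which the heart was frozen. The hearts had been perfused outside the body to measure their function before freezing, in sham and septic rats alike. No animal died of sepsis before that time, and RNA of low integrity or amount was discarded. Tissue was bulk ventricle, so more cells of a type and more RNA per cell cannot be told apart.

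Reg3 lectins are known from the gut and the pancreas. Intestinal epithelium secretes Reg3g and Reg3b, which bind bacterial surfaces, and the acinar cells of an inflamed pancreas release Reg3b as pancreatitis-associated protein. In epithelium they are induced through interleukin 22 and STAT3, and in cardiac muscle Reg3b has been described as a product of cardiomyocytes exposed to oncostatin M that attracts macrophages. Galanin is stored in sympathetic nerves beside noradrenaline, dampens vagal signalling to the heart, acts on the G protein-coupled receptors Galr1, Galr2 and Galr3, and is induced in neurons after axon injury.

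The 3 Reg3 probes lay on chromosome 4 and the Gal probe on chromosome 1 of rat build rn4. Their first 30 of 60 bases are shown so that each measurement can be tied to its target.
Reg3b, chr4:112357807-112358789, plus strand: cagcttgtcaagatcttctggatttctaag
Reg3a, chr4:112368639-112368698, plus strand: tgcatcagacttgctgttatgattttccat
Reg3g, chr4:112418369-112418428, minus strand: caatgggaagatcaacaacaacaacaaaaa
Gal, chr1:205936430-205936489, minus strand: agtcattctaggctaaaaagaatcttccgc
The Reg3b probe covered 983 bases of genome with its 60 bases, so it spanned an intron. Among the 3 Reg3 probes the longest run of identical bases was 6, between Reg3b and Reg3a and between Reg3g and Reg3b. Reg3g shared 17 bases with an unnamed probe, and the longest runs that Reg3b, Reg3a and Gal shared with any other probe of the array were 13, 13 and 14 bases. Which exon each probe lies in is not stated in the sources used here.

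In the RefSeq annotation of build GRCr8 the order on chromosome 4 was Reg3b, Reg3a, Reg1a and Reg3g, with no other protein-coding gene between them. The 150 bases before the start sites are shown because Reg3b and Reg3a varied together from animal to animal (below). Capitals mark TTCNNNGAA, the core to which STAT proteins bind, and TATAAA.
Reg3b, chr4:112419626-112419775, plus strand: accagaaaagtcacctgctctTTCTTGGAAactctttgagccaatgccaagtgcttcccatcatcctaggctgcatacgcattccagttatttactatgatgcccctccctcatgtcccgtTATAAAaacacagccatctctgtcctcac
Reg3a (the second of its start sites), chr4:112430274-112430423, plus strand: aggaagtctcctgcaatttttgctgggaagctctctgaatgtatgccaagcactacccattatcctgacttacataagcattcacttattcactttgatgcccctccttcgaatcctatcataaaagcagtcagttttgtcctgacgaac
Reg3g, chr4:112484739-112484888, minus strand: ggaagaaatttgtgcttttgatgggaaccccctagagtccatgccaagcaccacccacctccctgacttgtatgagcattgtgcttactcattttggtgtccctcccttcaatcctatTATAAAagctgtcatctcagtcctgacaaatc
Gal, chr1:210084573-210084722, minus strand: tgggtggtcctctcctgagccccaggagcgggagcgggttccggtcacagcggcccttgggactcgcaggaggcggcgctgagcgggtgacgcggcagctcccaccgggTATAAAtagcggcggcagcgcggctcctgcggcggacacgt
TTCNNNGAA on either strand was found once, in Reg3b, 129 bases before the start, and 4.41% of 33469 promoter windows of this length held it. TATAAA was found in Reg3b, Reg3g and Gal and in 8.00% of all windows, whereas the cAMP response element TGACGTCA (1.36% of windows) and the AP-1 site TGANTCA (3.69%) were found in none of the 4 genes. These matches are letters in a window and do not show that a factor binds. Without gaps, the Reg3b window was identical to that of Reg3g at 83 of 147 bases, to those of Reg3a at 48 of 148 (first start site) and 65 of 149 (second), and to that of Gal at 43 of 150.

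The arrays lay on 4 slides of 8, 2 per sex, with every group on both slides of its sex, so sex and slide cannot be told apart. Between 34920 and 43155 spots per array were well above background, 0 spots were saturated, and 25866 probes in males and 25395 in females passed the filter on dim probes. All 6 female CLP plus landiolol arrays lay in row 2 of a slide and all 5 female sham arrays in row 1. The first female slide was read with another protocol of the scanner software than the second. All 4 members passed the filter in both sexes. Reg3a passed only through its CLP groups, where 4 of 5 arrays were well above background in each sex. Levels are log2 of the background-subtracted intensity after quantile normalisation within a sex, and they cannot be compared between genes. Precision is limited by how few arrays a group has.

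Reg3b, the lectin of the injured pancreas and heart, was detected on all 32 arrays and showed the largest difference of the 4 genes. In male sham rats its level was 10.42, 9.79, 7.80, 6.14 and 10.01, and in male CLP rats it was 12.05, 15.06, 15.29, 15.07 and 14.76. Every male CLP array lay above every male sham array, although replicate 1 of the CLP group was far below the other four. The means were 8.83 ± 1.81 (SD, n = 5) and 14.44 ± 1.35 (n = 5), a difference of 5.61 on the log2 scale (standard error 1.20), or 48.9-fold. In female sham rats the level was 5.93, 6.28, 8.63, 8.87 and 7.54, and in female CLP rats 16.36, 14.56, 15.26, 14.64 and 12.13. The groups again did not overlap, and the lowest female CLP array was replicate 5. The female difference was 7.14 (standard error 1.09), or 141-fold. Among all probes kept, Reg3b ranked 4 by its rise in males and 1 in females. In males Cxcl13, a chemokine for B cells, lay just above it at 5.62 and Lcn2, which withholds iron from bacteria, just below at 5.10. In females Saal1 came next, at 7.07. Gal lay between C3, a complement protein, at 4.83 and Cdo1, cysteine dioxygenase, at 4.46 in males.

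Reg3g, the antibacterial lectin of the gut lining, was also detected on all 32 arrays, with a smaller difference and overlapping groups. Male sham levels were 9.09, 8.55, 6.70, 5.54 and 5.91, and male CLP levels were 12.13, 9.93, 9.05, 8.22 and 10.33. The overlap in males came from 2 sham arrays at or above the lowest CLP array. The male CLP array with the highest Reg3g was replicate 1, the array with the lowest Reg3b of its group. In females the sham levels were 7.15, 6.53, 10.25, 7.24 and 5.98, and the CLP levels were 11.47, 11.66, 10.44, 11.91 and 10.18. Replicate 3 of the female sham group lay within the CLP range, and the other 4 sham arrays lay below it. The difference between CLP and sham was 2.78 (standard error 0.87) in males, or 6.85-fold, and 3.70 (standard error 0.75) in females, or 13.0-fold.

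Reg3a, a further lectin of the same cluster, was near the limit of detection. It was well above background on 1 of 5 male sham arrays, 0 of 5 female sham arrays and 4 of 5 CLP arrays of each sex. Its level was 2.82, 4.21, 3.24, 1.93 and 2.11 in male sham rats and 4.43, 8.60, 7.86, 6.70 and 6.49 in male CLP rats. Female sham rats had 2.24, 3.35, 3.94, 3.39 and 2.55, and female CLP rats 6.56, 7.22, 6.75, 7.02 and 4.11. The groups did not overlap in either sex, and the CLP array that was not detected was replicate 1 in males and replicate 5 in females, the same arrays that were lowest for Reg3b. In males the fitted difference was 3.95 (standard error 0.97), but 4 of the 5 sham arrays were not well above background, so its size rests on background values. In females the measured means were 3.09 and 6.33. With each sham array raised to the weakest signal that still counted as detected on it, the means differed 7.16-fold. This is no strict lower bound, since the undetected CLP replicate 5 kept its measured value. The size depended on how the background was treated, since with a normexp correction and an offset of 50 the difference was 1.40 in males and 1.06 in females.

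Gal, the galanin precursor, was detected on all 32 arrays and separated the groups in both sexes. Male sham levels were 6.83, 7.60, 7.11, 8.05 and 6.13, and male CLP levels were 12.10, 12.17, 11.03, 11.21 and 12.77. Male arrays were tight on both sides of a wide gap. Female sham levels were 7.66, 8.95, 5.91, 6.21 and 4.42, a broad range, and female CLP levels were 13.55, 12.47, 11.34, 12.64 and 12.57. The difference was 4.71 (standard error 0.46) in males, or 26.2-fold, and 5.88 (standard error 0.92) in females, or 59.0-fold, which ranked 10 and 3 among all probes kept.

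**Figure D1:**
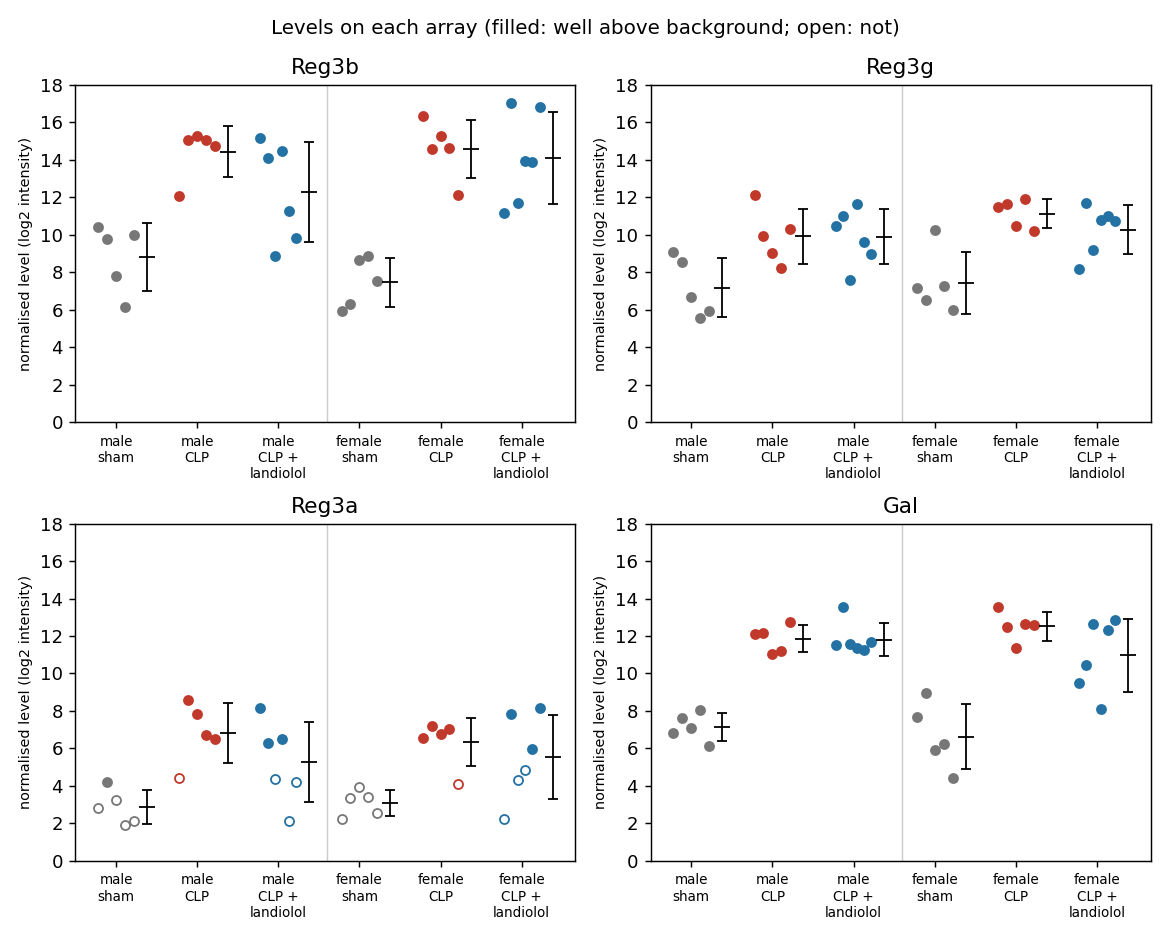
Normalised levels (log2 intensity, vertical axis) of Reg3b, Reg3g, Reg3a and Gal on each of the 32 arrays, by sex and group (horizontal axis), with the mean and SD of each group as a bar; filled points were well above background and open points were not. Every CLP array lies above every sham array of its sex for Reg3b, Reg3a and Gal, and the CLP plus landiolol arrays of Reg3b and Reg3a spread over nearly 6 units or more.

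Counted together, 3 of the 4 genes, Reg3b, Reg3a and Gal, had CLP arrays that all lay above the sham arrays in both sexes. Of all probes kept, 6.09% in males and 3.95% in females did so, and nothing is read from this because CLP vs sham chose the genes. The median difference over all probes kept was 0.01 in males and -0.01 in females. Within each of the male slides the Reg3b difference was 4.03 and 6.93, and within the female slides it was 7.23 and 7.01. For Gal it was 4.55 and 4.90 in males and 6.56 and 4.90 in females. For Reg3a it was 3.45 and 4.17 in males and 4.21 and 2.43 in females. For Reg3b, Reg3a and Gal every CLP array lay above every sham array of its sex, so a rise within each slide was fixed by that. For Reg3g the values were 1.55 and 3.23 in males and 3.99 and 3.81 in females.

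Landiolol given after CLP left none of the 4 genes with a change that passed the test. CLP plus landiolol was compared with CLP by limma over all probes kept, at an FDR of 5%, and 0 of 4 genes passed in males and 0 of 4 in females (Reg3a with the reservation given below), against 1.56% of all probes in males and 0.0945% in females. At an unadjusted limma p under 0.05 the count was also 0 of 4 in each sex, where 14.8% of all probes passed in males and 9.34% in females, and SAM, the test named in the methods of the study, called 0 of 4 as well. The comparison shares its CLP arrays with the one that chose the genes and is not independent of it.

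In males given landiolol, Reg3b ranged from 8.86 to 15.19 with a median of 12.70 (mean 12.29 ± 2.66, n = 6). The difference from CLP was -2.15 (95% interval -4.59 to 0.29, limma adjusted p = 0.406, two-sided exact permutation p = 0.136). The interval runs from a fall of more than 4 log2 units to a small rise. In females Reg3b ranged from 11.17 to 17.05 with a median of 13.92, and the difference was -0.49 (95% interval -2.71 to 1.73, adjusted p = 0.938, exact permutation p = 0.710). Within the female slides it was -2.35 and 1.36, opposite signs on the slides, whereas within the male slides it was -1.41 and -3.05. With a term for the slide row, which all 6 female landiolol arrays share, the female difference for Reg3b was 0.71. Without male CLP replicate 1, the low array, the male difference was -2.75 (limma adjusted p = 0.193). Both sexes thus had wide intervals and individual animals at either end of the range.

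Reg3a also had wide ranges. It ranged from 2.14 to 8.15 (median 5.32) in males given landiolol and from 2.25 to 8.13 (median 5.41) in females, with 3 of 6 arrays well above background in each sex. The fitted difference from CLP was -1.55 in males (95% interval -3.51 to 0.41) and -0.78 in females (-2.64 to 1.08). Because Reg3a passed the filter only through the CLP groups, the filtered fit favours a high CLP level, and its failure to pass there says little. In a limma fit of all probes with no filter the adjusted p was 0.627 in males and 0.874 in females. With a term for the slide row the female difference was -0.01. Within slides it was -0.70 and -2.33 in males and -2.95 and 1.13 in females.

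Reg3g ranged from 7.60 to 11.64 (median 10.06) in males given landiolol and from 8.18 to 11.70 (median 10.75) in females. The difference from CLP was -0.05 in males (95% interval -1.83 to 1.72, limma adjusted p = 0.982, exact permutation p = 0.959). It was -0.87 in females (-2.39 to 0.64, adjusted p = 0.760, exact permutation p = 0.234). Its sign differed between slides in both sexes, with -0.68 and 0.79 in males and -2.34 and 0.37 in females. With a linear term for the day read from the sample codes the male difference was -0.83. No direction can be given for Reg3g in males.

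Gal stayed close to its CLP level in males, from 11.25 to 13.55 with a median of 11.54, and 5 of the 6 arrays lay between 11.25 and 11.66. The male difference was -0.04 with the narrowest interval of the 4 genes (-0.97 to 0.89, limma adjusted p = 0.971, exact permutation p = 0.939). In females given landiolol Gal ranged from 8.09 to 12.86 with a median of 11.41. The lowest 3 arrays, at 8.09, 9.49 and 10.47, lay below every female CLP array, and the other 3 lay among them. The female difference was -1.53 (-3.40 to 0.34, adjusted p = 0.630, exact permutation p = 0.152), and it was -1.06 and -2.01 within the slides.

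Whether the response to landiolol differed between the sexes was tested by limma as an interaction term, with the arrays of males and females quantile-normalised as 1 set. The male minus female difference was -1.68 for Reg3b (standard error 1.62, limma adjusted p = 0.968), 0.83 for Reg3g (1.15, 0.977), -0.78 for Reg3a (1.33, 0.980) and 1.5 for Gal (1.03, 0.968). None of the 4 passed, and over all 26492 probes tested limma called 0, a share of 0%, with 1307 at an unadjusted p under 0.05 and 0 of the 4 genes among them. Reg3a entered this test only through its CLP groups, so its result says little here too.

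Against sham, the CLP plus landiolol groups were higher for all 4 genes in both sexes, and these values share the sham arrays with the rule. Reg3b was higher by 3.46 in males (standard error 1.15) and by 6.65 in females (standard error 1.05), with overlapping groups in males only. Gal was higher by 4.67 (standard error 0.44) and 4.35 (standard error 0.88), and here the groups overlapped in females only. Reg3g was higher by 2.72 and 2.83, and Reg3a and Reg3g overlapped in both sexes. The gene free of overlap was thus 1 of 4 in each sex, against 4.22% of all probes in males and 5.57% in females, and nothing is read from this either. Reg3a was higher by 2.40 in males, where 1 of 5 sham and 3 of 6 landiolol arrays were well above background. In females 0 of 5 sham and 3 of 6 landiolol arrays were (measured means 3.09 and 5.55). With each female sham array raised to its weakest detected signal, the means differed 4.17-fold. This is no lower bound, since undetected landiolol arrays kept their measured values. With normexp the Reg3a difference was 0.77 in males and 0.89 in females, so its size rests on background values. For every gene and sex the order of the means was CLP, CLP plus landiolol, sham. The choice of genes by CLP vs sham favours a high CLP and a low sham mean, so nothing is read from this order. The gap between the first and second mean was below the pooled SD within groups in all cases but Reg3b in males, where it was 2.15 against 2.01.

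**Figure D2:**
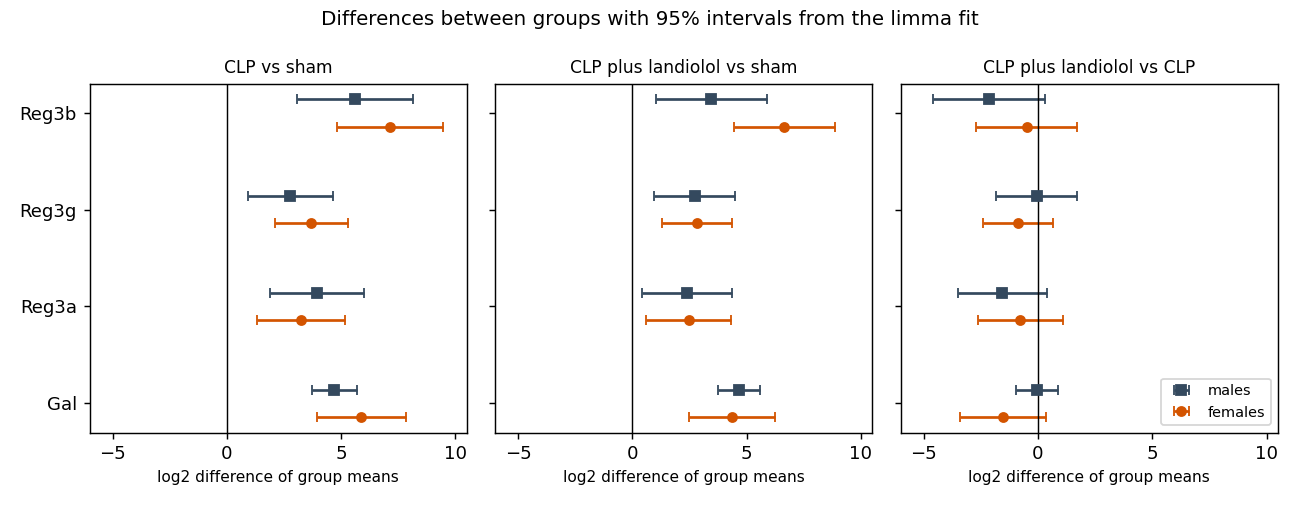
Differences of group means (log2, horizontal axis) for the 4 genes (vertical axis) in males (squares) and females (circles) with 95% intervals from the limma fit, 1 panel for each comparison. The comparisons with sham chose the genes or share its arrays and are drawn as a description, with Reg3a in females at its fitted value although no sham array detected it. All intervals of CLP plus landiolol vs CLP include 0, the narrowest being that of Gal in males, from -0.97 to 0.89.

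The 4 genes varied more between animals of 1 group than most probes. The SD of Reg3b within groups was 1.33 to 2.66, against a median of 0.30 to 0.41 over all probes kept, and it stood at the 99.1 percentile or above in all 6 groups. The largest SDs of Reg3b were in the CLP plus landiolol groups, 2.66 in males and 2.47 in females, a range of 81.0-fold and 58.9-fold between the lowest and highest animals. Gal was less variable in the CLP groups, with an SD of 0.72 (93.1 percentile) in males and 0.78 (86.7) in females. The percentiles describe these arrays only.

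Reg3b and Reg3a were high or low together in most animals, and Reg3g joined them in some groups only. All 3 Reg3 genes lay on the same side of their group means in 8 of 16 males and 9 of 16 females. This was so in 6 of 6 males and 4 of 6 females given landiolol, in 0 of 5 male CLP rats and in 3 of 5 female CLP rats. In males given landiolol, replicates 1, 2 and 4 had Reg3b at 15.19, 14.11 and 14.47, and replicates 3, 5 and 6 had it at 8.86, 11.29 and 9.83. The first 3 of these animals were also the 3 with the highest Reg3g, at 10.49, 10.98 and 11.64, and the only 3 with Reg3a well above background. Reg1a, the relative that lies between Reg3a and Reg3g and was not used to choose them, was at 9.68, 8.48 and 8.08 in the same 3 animals and not well above background in the other 3. In females given landiolol, Reg3b was highest in replicates 2 and 6, at 17.05 and 16.84, and so were Reg3a, at 7.81 and 8.13, and Reg1a, at 9.99 and 9.23. Replicate 1 was the lowest of that group for all 4 Reg genes, with Reg3b at 11.17, Reg3g at 8.18, Reg3a at 2.25 and Reg1a at 2.18. Among male CLP rats, replicate 1 was lowest for Reg3b and Reg3a and highest for Reg3g, and replicates 3 and 4 had Reg3b above and Reg3g below its group mean. Gal in these animals took another order, since females 2 and 6 given landiolol had 10.47 and 12.86 and the lowest Gal, 8.09, was that of female 4.

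As deviations from the mean of the animal's own group, Reg3b and Reg3a had a Pearson r of 0.71 over the 16 male arrays, 0.88 over the 16 female arrays and 0.79 over all 32 (Spearman 0.77). Leaving out the 2 arrays farthest from the median gave 0.78. Reg3a was well above background on 8 of the 16 male and 7 of the 16 female arrays, so many of its deviations are differences between background values. Both lay on the same side of their group means on 11 of 16 male and 12 of 16 female arrays. Reg3b and Reg3g had 0.55 over the 32 arrays, 0.46 in males and 0.65 in females, and the male value fell to 0.18 without the 2 farthest arrays. Reg3g and Reg3a had 0.21 in males and 0.69 in females, and Reg3g and Gal 0.28 and 0.04, so in males Reg3g had about as high an r with Gal as with Reg3a. Reg3b and Gal had -0.04 over the 32 arrays, -0.08 in males and -0.02 in females. These are descriptions over arrays that share slide and labelling, and no p is given. The brightness of an array, as the log2 of its median signal, had an r of 0.02 with the deviations of Reg3b in males and 0.11 in females, and of 0.48 and 0.47 with those of Reg3a and Gal in males.

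**Figure D3:**
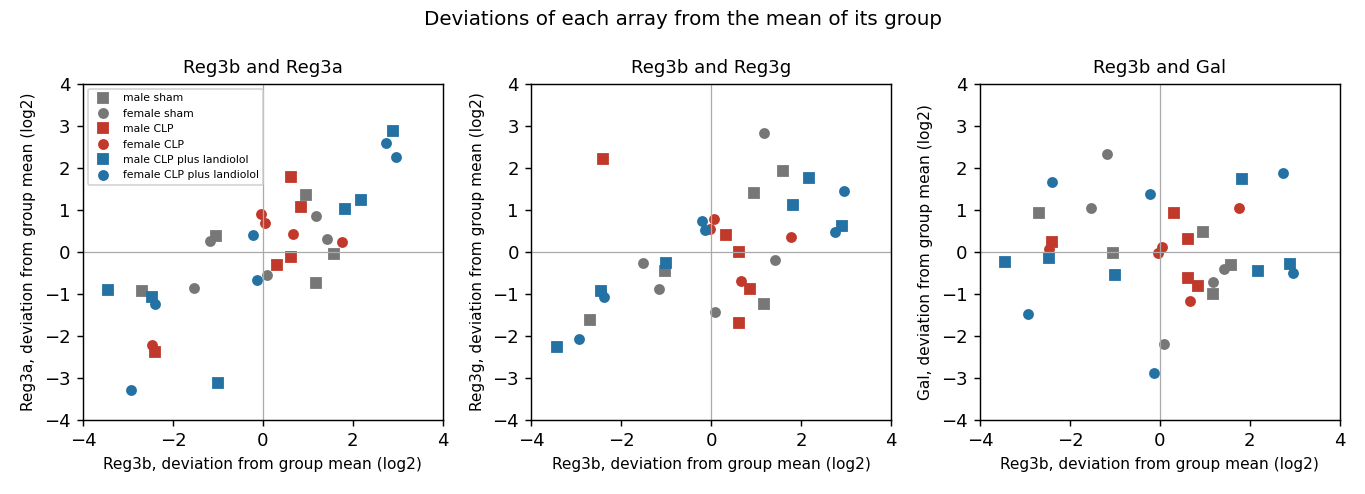
Deviation of each array from the mean of its own group (log2) for Reg3b (horizontal axis) against Reg3a, Reg3g and Gal (vertical axes), with squares for males, circles for females and colours for groups. Reg3a follows Reg3b (r = 0.79 over 32 arrays), Reg3g does so more loosely (0.55) and Gal does not (-0.04), with many Reg3a values at background.

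Other genes had patterns like those of the 4 over the 16 arrays of each sex, ranked by the lower of the male and the female Pearson r. Nearest to Reg3b were Lcn2 (0.853 in males, 0.857 in females), which binds bacterial iron carriers, Cdh16, a cadherin, Slc39a1, a zinc transporter, Fhdc1 and Ace, the angiotensin-converting enzyme. Reg1a was among the 5 nearest to Reg3g (0.745 and 0.793) and to Reg3a (0.778 and 0.910). Around it were Slco2a1, a prostaglandin transporter, Mrap, Cp, the copper oxidase ceruloplasmin, and Rec8 for Reg3g, and Paqr8, Apod, Snrpg and Scgb2a1 for Reg3a. Nearest to Gal were Serpina3n, an acute-phase protease inhibitor (0.932 and 0.878), Hsd11b1, which activates glucocorticoids, Tmtc1, Kcnk1, a potassium channel, and Cdo1, cysteine dioxygenase. These correlations hold the difference between sham and CLP as well as the spread between animals. None of the 5 genes nearest to Gal was among those nearest to a Reg3 gene.

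None of the tested genes that flank the members on the chromosome passed the test. Of the 4 protein-coding genes on each side of the Reg cluster, 5 of 8 were on the array and 2, Gcfc2 and the mitochondrial ribosomal gene Mrpl19, passed the filter. Neither was called after CLP by limma at an FDR of 1% (adjusted p of Mrpl19 in males = 0.0190), with differences of 0.07 and -0.44 in males and 0.01 and -0.38 in females. Around Gal, 6 of 8 neighbours could be tested, among them Cpt1a, which carries fatty acids into mitochondria, and Lrp5, a Wnt co-receptor. Limma called 0 of the 6 in either sex at an FDR of 1%, with differences from -0.44 to 0.24 in males and from -0.63 to 0.03 in females. Reg1a inside the cluster was detected on 0 of 5 sham arrays in each sex. Its fitted difference after CLP was 2.98 in males (standard error 1.15, limma adjusted p = 0.0931) and 3.64 in females (standard error 1.24, adjusted p = 0.0823). Neither passed, and both sizes rest on background values in the sham arrays. With each sham array raised to its weakest detected signal, the means differed 4.92-fold in males and 6.60-fold in females. These are not lower bounds on the rise, since they leave out the spread between animals. Like Reg3a, Reg1a passed the filter only through its CLP groups, so this fit favours a high CLP level.

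Genes of the surrounding pathways were counted at an FDR of 1% for CLP and 5% for landiolol, from lists of 74 symbols of which 46 could be tested in each sex. After CLP, 10 of 46 were higher and 3 lower in males, against 3.88% and 3.94% of all probes kept, and 6 were higher and 1 lower in females, against 1.82% and 1.82%. Among secreted antimicrobial proteins, 5 of 7 tested rose in males and 4 of 7 in females, with a median difference of 2.50 and 1.95. S100a8 and S100a9 were among those tested and passed the filter only through the septic groups, so their fit favours a high CLP level. Both medians are the value of S100a9. Lcn2 rose by 5.10 in males (standard error 0.35, limma adjusted p = 6.72e-07) and by 3.82 in females (standard error 0.41, adjusted p = 5.97e-05). S100a8, a calcium-binding protein of neutrophils, was detected on no male sham array and every male CLP array. With the male sham arrays raised to their weakest detected signal, its means differed 11.3-fold. In females S100a8 rose by 4.15. Only 1 of 5 female sham arrays detected it, so the female size rests largely on background values. Slpi, an inhibitor of neutrophil elastase, rose by 2.82 and 2.96. Camp, Ltf, Bpi and Itln1, antimicrobial proteins of granules and epithelium, did not pass the filter on dim probes in either sex.

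Of the interleukin 22, interleukin 17 and gp130 genes, which include the known inducers of Reg3 genes in epithelium, 5 of 18 tested rose in males and 1 of 17 in females. The kinase Jak2 rose by 2.03 in males (adjusted p = 0.000151) and was at 1.22 in females (adjusted p = 0.0382, short of 1%). The transcription factor Stat3 rose in both sexes, by 1.59 (standard error 0.17) and 1.06 (standard error 0.18). The interleukin 6 receptor Il6r rose by 1.56 in males, and Il17ra and the gp130 gene Il6st were the other two. The ligand Il22, its receptor Il22ra1 and Il17a were detected on 0 of the 32 arrays. Osm, the ligand oncostatin M, was detected on all 32 arrays with differences of 0.49 in males (adjusted p = 0.225) and -0.30 in females (0.727), and its receptor Osmr had 0.62 (0.0946) and 0.40 (0.553). Extl3, described as a receptor for Reg proteins, was at -0.32 (0.716) and 0.45 (0.665).

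Of the receptors of galanin, Galr2 rose by 1.27 in females (standard error 0.25, limma adjusted p = 0.00494) and was at 0.69 in males (0.0732). Galr1 and Galr3 were at 0.33 and 0.10 in males and 0.61 and 0.46 in females and did not pass. Among other neuropeptides and granins, 5 of 18 could be tested in males and 6 in females, and none rose. Cck, the cholecystokinin gene, fell by 1.09 in males (adjusted p = 0.00675) and by 1.14 in females (0.00254). Npy, which sympathetic nerves also store, was at 0.69 (0.313) and 1.11 (0.393). Chgb, Scg2, Scg3, Sst and Adcyap1 were detected on 0 of the 32 arrays. Of 11 nerve injury-associated genes tested, 0 rose in either sex, and Gap43 and Stmn4, genes of growing axons, fell by 1.48 (adjusted p = 7.18e-05) and 1.77 (0.000916) in males.

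**Figure D4:**
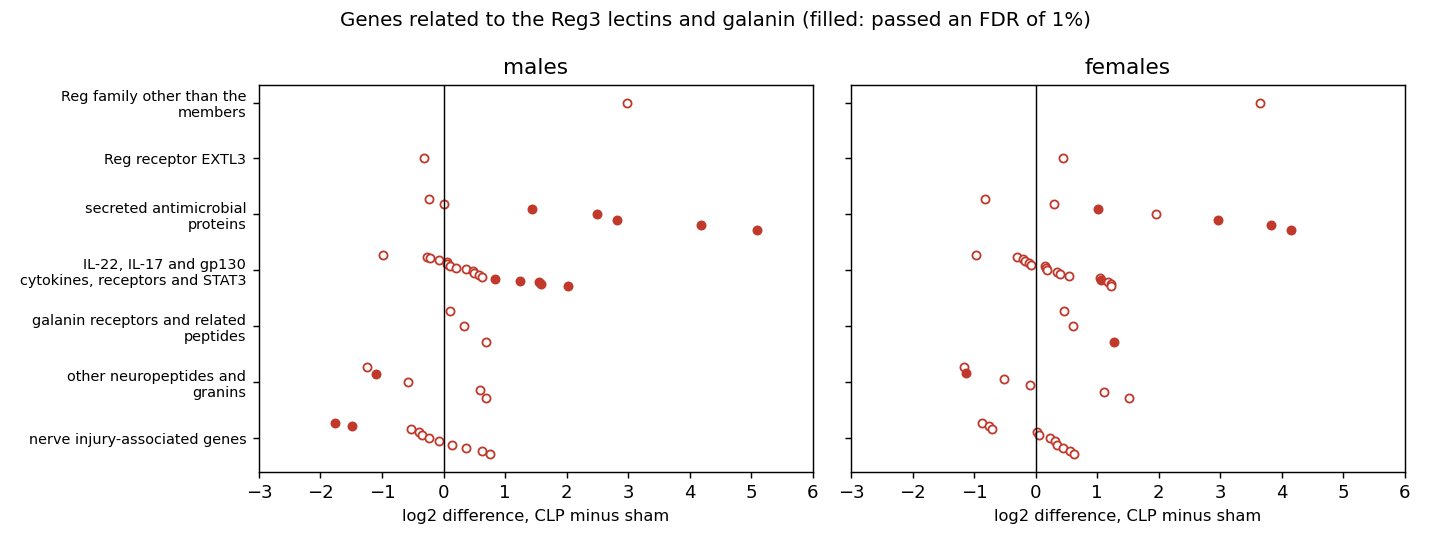
Difference between CLP and sham (log2, horizontal axis) for every tested gene of the surrounding pathways, by list (vertical axis) and sex (panels); filled points passed an FDR of 1%. The largest differences that passed are among the secreted antimicrobial proteins, with Lcn2 at 5.10 in males, and no neuropeptide or nerve injury gene passed upward in either sex. S100a8 in males and Reg1a in both sexes are drawn at their fitted values, although no sham array of that sex detected them.

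After landiolol, 3 of the 46 genes were lower and 0 higher in males, against 0.758% and 0.804% of all probes. In females limma called 0 of 46, against 0.0433% lower and 0.0512% higher. The 3 were Il6r (-1.38, standard error 0.21, limma adjusted p = 0.00484), Stat3 (-0.82, standard error 0.17, adjusted p = 0.0235) and Lcn2 (-1.53, standard error 0.33, adjusted p = 0.0313). In females the same genes were at -0.92 (0.341), -0.29 (0.645) and -0.83 (0.539). The male count was 1 without CLP replicate 3 or 4 and without CLP plus landiolol replicate 3 or 6.

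The label of the tissue fitted its markers, since 8 of 8 cardiomyocyte genes were well above background on every array and none was called after CLP or landiolol. Intestinal epithelium, a source of Reg3 lectins, left little trace, with 6 of 8 markers in males and 8 of 8 in females detected on no array of that sex, Epcam, Vil1 and Fabp2 among them. Its summed level lay between 5.14 and 6.12 in male sham and between 5.21 and 5.96 in male CLP arrays, and between 5.23 and 5.58 and between 5.18 and 5.82 in females. Of the pancreatic acinar markers, 4 of 10 were not well above background on any array in each sex, including Cpa1, Cpb1 and Clps. Others were detected, Ctrb1 on 32 of 32 arrays, Cel on 16 of 16 male and 15 of 16 female arrays and Cela2a on 4 male and 9 female arrays. Limma called none of those tested after CLP, with Ctrb1 at -0.32 (adjusted p = 0.260) in males and -0.19 (0.715) in females and Cel at 0.33 (0.374) and 0.09 (0.928). The acinar sums were 7.79 to 8.14 in sham and 7.72 to 8.07 in CLP in males and 7.79 to 8.37 and 7.72 to 8.47 in females. Of 3 islet markers, Ins1 was detected on every array and was not called by limma after CLP, with differences of -0.05 (adjusted p = 0.927) and -0.36 (0.459). Over deviations from group means, the r with Reg3b was -0.35 in males and -0.04 in females for the intestinal sum and 0.07 and -0.11 for the acinar sum. With most or all of its markers undetected, the intestinal sum is largely background signal, and its r says little about intestinal cells. The part of gut or pancreatic cells in the levels of the Reg3 genes was not tested.

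Markers of blood-derived cells did move with CLP. The summed level of the macrophage and monocyte list was 13.52 to 14 in male sham, 14.93 to 15.49 in male CLP, 13.91 to 14.47 in female sham and 14.97 to 15.63 in female CLP arrays. Cd68, Adgre1 and Lyz2 rose in both sexes, 3 of 6 genes tested. The neutrophil sum went from 5.39 to 6.02 in male sham to 7.12 to 9.65 in male CLP arrays, and from 5.36 to 6.22 to 7.48 to 8.83 in females. Only 2 of its 6 markers, S100a8 and S100a9, passed the filter, so the CLP sums rest largely on them. Limma called both after CLP in males and S100a8 alone in females. Elane, the neutrophil elastase gene, was detected on 0 of the 32 arrays. Lyz2 and S100a8 are also members of the list of antimicrobial proteins. Within groups, the macrophage sum had an r of 0.32 with Reg3b in males and 0.62 in females, and the neutrophil sum 0.18 and -0.21. Their part in the levels of the Reg3 genes was not tested.

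Markers of nerves, where galanin is stored, moved in both directions. Of 9 neuron markers, 5 could be tested in each sex, and after CLP Prph, the intermediate filament peripherin, fell by 1.58 in males and Uchl1 rose by 1.51 in females. Th, the rate-limiting enzyme of noradrenaline synthesis, was at 0.18 (limma adjusted p = 0.316) in males and -0.13 (0.765) in females. After landiolol in males, Dbh, which makes noradrenaline from dopamine, fell by 0.94 (adjusted p = 0.0113) and Prph rose by 1.02 (0.0212). Slc6a2, the noradrenaline transporter, was well above background on 0 of 16 male and 1 of 16 female arrays. Within groups the neuron sum had an r of -0.28 with Gal in males and -0.04 in females, and of 0.49 and 0.52 with Reg3b. Its part in these levels was not tested.

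For the other cell types, 3 of 5 fibroblast markers fell in males and 0 in females after CLP, and 0 of the endothelial, smooth muscle, lymphocyte, mesothelial and hepatocyte markers tested were called by limma in either sex.

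**Figure D5:**
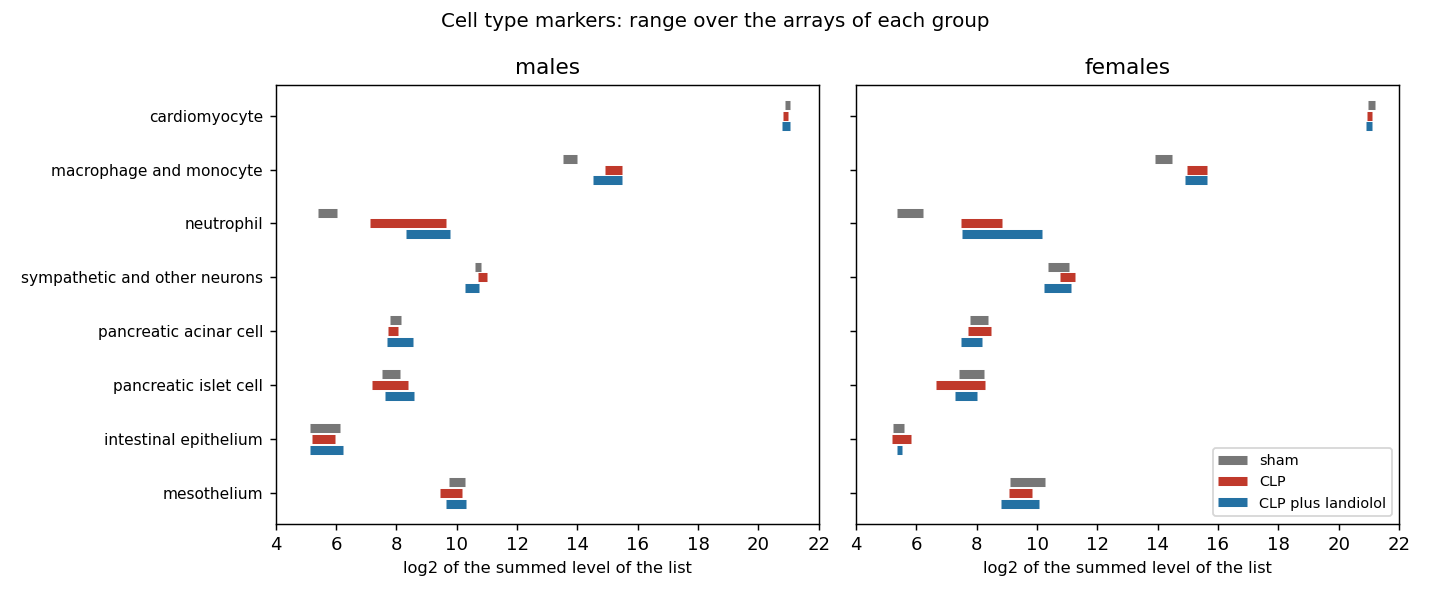
Range over the arrays of a group of the log2 of the summed level of each cell type list (horizontal axis), for males and females (panels), with grey for sham, red for CLP and blue for CLP plus landiolol. The macrophage and neutrophil sums of CLP arrays lie above those of sham arrays in both sexes, and the ranges of the intestinal and pancreatic lists overlap between groups.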

How the data were processed

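RNA of 32 left ventricles was hybridised to 1-colour Agilent rat arrays. The authors deposited scanner output from Feature Extraction 10.5, with a background-subtracted intensity, a mean intensity, a background intensity and quality marks per spot. They also deposited quantile-normalised log2 values that had passed a filter. Whether an offset was added to those values is not known, and they were used as an alternative only (Spearman correlation with the scanner values no lower than 0.995 after rounding, column medians from 9.62 to 9.71). A spot is 1 intensity, so there are no counts behind a value.

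Control spots were left out, and 213 probe values marked as outliers were dropped. Background-subtracted intensities were put on the log2 scale, the mean over spots of 1 probe was taken and quantile normalisation was done within a sex (16 arrays). Probes were kept when well above background on 80% of the arrays of at least 1 group. The 3 groups of a sex were fitted by lmFit and eBayes of limma 3.58.1, with no mean-variance trend, in R 4.3.3 with data.table (version 1.17.8), with Benjamini-Hochberg adjustment over all probes kept. CLP vs sham was not tested for the members. On simulated data, for landiolol after CLP, limma recovered 67.0% of 200 probes shifted by 1 (log2) in males and 56.5% in females (25835 and 25316 probes), and 91.0% and 89.5% of those shifted by 2. The shifted probes were drawn at random from all probes kept. Most probes vary less within groups than the members, so these shares do not apply to the members. SAM was run on the groups compared with 100 permutations.

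Members and gene lists were chosen with earlier results of these data known. Names came from the files, with the brightest probe for a gene of a list. Named genes were the members, the 5 most alike by correlation, genes of the lists called in a comparison, and neighbours in rank. Other genes were named for their role after their values were seen. Replicate numbers follow the order of deposit and pair nothing. Coordinates are rn4 for probes and GRCr8 for RefSeq promoters, which were found for 4 of 4 members. Figures were drawn with matplotlib 3.10.9, pandas 2.3.3 and numpy 2.4.6.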

Additional observations from a re-analysis of the deposited data

Results flagged for a closer look

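In 3 of 24 sets of arrays (1 gene in 1 group of 1 sex), a single array lay far from the rest by Dixon's ratio of its gap to the whole range, and about 1 set in 20 does so by chance. Reg3b in male CLP replicate 1 was at 12.05, with the next array at 14.76 and the highest at 15.29 (ratio 0.837). Reg3a in female CLP replicate 5 was at 4.11, with the others from 6.56 to 7.22 (ratio 0.789). Gal in male CLP plus landiolol replicate 2 was at 13.55, with the others from 11.25 to 11.66 (ratio 0.821). The values were kept in every comparison.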

How the results depend on the processing

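No paired analysis was possible because the labels give the samples no replicate numbers. The count of members called for CLP plus landiolol vs CLP stayed at 0 in each sex under every alternative run, from 0 to 0 when each array was left out, and the same held for the sex difference. Only 1 probe per member exists, so other probes could not be run, and Reg3a did not pass a filter on all 16 arrays. Differences near 0 changed sign. In males Reg3g was at 0.37 and Gal at 0.35 with array weights, and Reg3g at 0.05 with the slide as a term, and leaving out 1 array gave -0.48 to 0.50 for Reg3g and -0.39 to 0.19 for Gal. In females Reg3b was at 0.71 with a term for the slide row and between -1.10 and 0.10 without 1 array. The other differences from CLP kept their sign, although Reg3a in females came to -0.01 with the row term. Reg3g in males was at -0.83 with a linear term for the day read from the sample codes, which the labels do not explain. Without 1 array, the differences that kept their sign ranged over -2.75 to -1.46 for Reg3b and -2.15 to -0.93 for Reg3a in males and -1.16 to -0.46 for Reg3g, -1.33 to -0.12 for Reg3a and -1.91 to -0.95 for Gal in females.

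Reg3a after CLP shrank from 3.95 to 1.40 (normexp), 1.75 (raw mean signal) and 2.02 (authors' table) in males, and these settings gave 1.06, 1.31 and 1.29 in females, where the sham level is only a bound. With the row as a term, Reg3b in CLP plus landiolol vs sham was 8.65 in females. Of the related genes, 10 to 13 were called after CLP in males and 5 to 8 in females, and after landiolol in males 1 gene instead of 3 was called in a fit without the sham arrays and 1 to 4 without 1 array. The correlation of Reg3b and Reg3a stayed between 0.76 and 0.83 in settings chosen after seeing the data. Dimness limits Reg3a, and the number of arrays limits all values.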
